A study of Mus musculus with 8 samples.

Results

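Hearts of Piezo1-Cko mice were compared with wild-type hearts after TAC (transverse aortic constriction), by RNA sequencing of 2 libraries in each group. The genes described are the 14817, of 54532 listed, that reached 0.5 FPKM (a read level corrected for the length of the gene and the depth of the library) in at least 2 of the 8 libraries of the study. Of these, 13930 also had at least 10 reads in 2 libraries and were tested, and the remaining 887 were not. All mice are labelled C57BL/6, and the 4 groups of 2 libraries are wild type with sham surgery (WT sham), wild type with TAC (WT TAC), Piezo1-Cko with sham surgery (Cko sham) and Piezo1-Cko with TAC (Cko TAC). The labels call the tissue heart and do not give the age or sex of the mice, the time after surgery, the deleted part of Piezo1, or the Cre driver and hence the cells in which it acted. Whether each library is a different animal is not stated, and the tests therefore weigh a difference only against library-to-library spread, which may be technical.

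TAC narrows the aorta and raises the pressure against which the left ventricle pumps. Over time the ventricle enlarges its cardiomyocytes, re-expresses genes of the fetal heart such as Nppa and Myh7, and deposits matrix. Piezo1 is a cation channel of the plasma membrane that opens when the membrane is stretched and lets calcium into the cell. Calcium that binds calmodulin activates the phosphatase calcineurin, which sends NFAT transcription factors to the nucleus, and Rcan1 is a well-known calcineurin target gene.

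The 4 TAC libraries held 16523039 to 17313084 assigned reads, and 17.6% to 20.7% of them were mitochondrial. All 12 cardiomyocyte markers were present in each, from Ttn at 12.3 to 19.4 FPKM to Actc1 at 4484 to 5468 FPKM, and their median log2 difference between Cko TAC and WT TAC was 0.00, or -0.18 to 0.15 with 1 of these libraries left out. Of 11 atrial markers, 7 were tested, with a median log2 difference of -0.12 (0.15 without WT TAC 1), and Myl7, Sln and Bmp10, which were not tested, were at 0 to 0.273 FPKM in the 4 TAC libraries. The library WT TAC 1 stood apart from the other 3 in immunoglobulin and matrix genes. Igkc, an immunoglobulin light chain of plasma cells, was at 272 FPKM in WT TAC 1, against 4.79 in WT TAC 2 and 4.79 and 4.24 in Cko TAC. The summed FPKM of the matrix glycoprotein list was 3163 in WT TAC 1, 1577 in WT TAC 2, and 2170 and 1808 in Cko TAC.

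The library labelled WT sham 1 also stood apart. Esr1 (estrogen receptor alpha, chr10:4611593-5005614, + strand) was at 0.307 and 0.394 FPKM in WT TAC and at 44.4 and 70.0 FPKM in Cko TAC. In the sham groups it was at 144 and 179 FPKM in Cko sham, at 0.103 FPKM in WT sham 2, but at 144 FPKM in WT sham 1. The same library held the atrial genes Myl7, a myosin light chain, at 394 FPKM, and Sln, the SERCA inhibitor sarcolipin, at 43.6 FPKM. In the other 7 libraries Myl7 was at 0 to 0.443 FPKM and Sln was listed at 0. Adipoq, the adipocyte hormone adiponectin, was at 3.06 FPKM there and at 0 to 0.378 FPKM in the others. The library is used under its label, and the part of these genes' tissues in the differences under sham was not tested. For Esr1 the totals give no value per exon, so reads of the whole receptor and of a part of the gene cannot be told apart.

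Piezo1 itself (chr8:122481698-122551329, - strand) was at 5.38 and 5.83 FPKM in WT TAC and at 5.24 and 3.89 FPKM in Cko TAC. Both Cko TAC libraries were below both WT TAC libraries, one of them by a small margin. The log2 difference was -0.28 (SE 0.19, adjusted p = 0.653 by limma), which did not pass the threshold of 0.05. It was -0.089 without Cko TAC 2 and -0.48 without Cko TAC 1. In the sham groups Piezo1 was at 2.35 and 3.09 FPKM in wild type and at 3.83 and 3.24 FPKM in Cko, so the TAC libraries of both genotypes were above the sham libraries. Under sham both Cko libraries were above both wild-type libraries, with a log2 difference of 0.33, or 0.16 without the library labelled WT sham 1. A deletion of a few exons, or one limited to a single cell type of a mixed tissue, need not lower the total for the gene, and the deposited totals give no value per exon. Piezo1 also overlaps Ctu2, Gm20388 and Gm26497, and whether reads were counted by strand is not given in the sources used here.

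**Figure D1:**
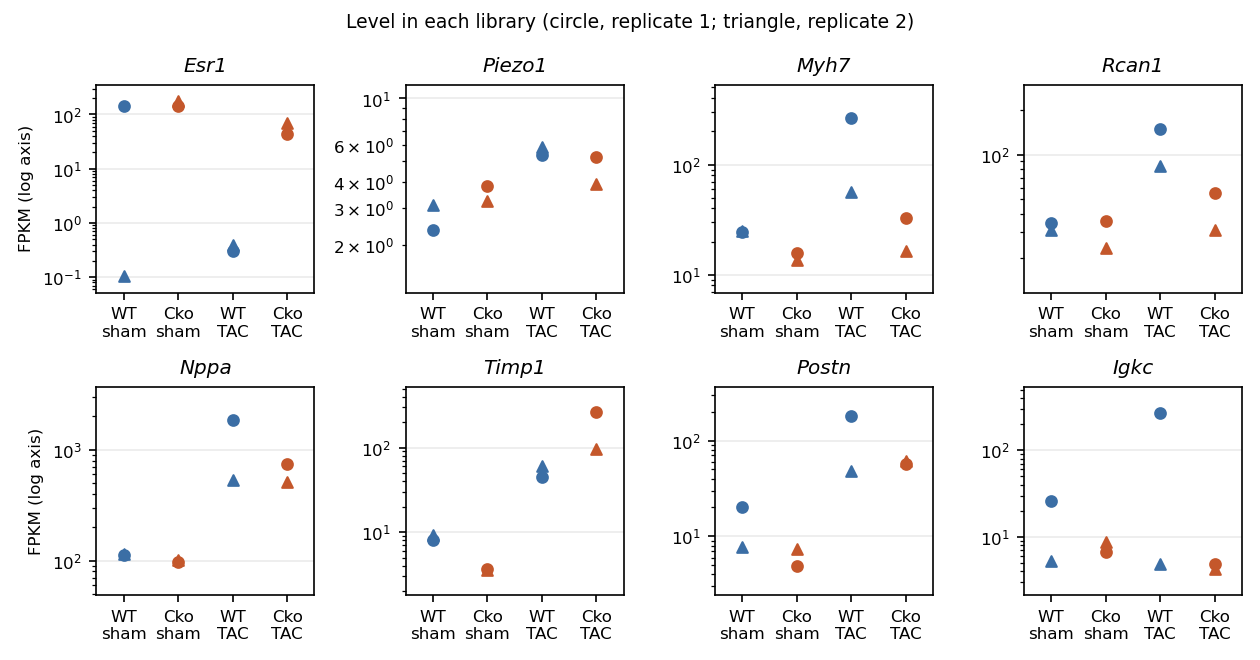
FPKM on a log axis for 8 genes in each of the 8 libraries, with wild type in blue and Piezo1-Cko in orange, replicate 1 as a circle and replicate 2 as a triangle. Esr1 is at 144 FPKM in the library labelled WT sham 1 and at 0.103 FPKM in WT sham 2. Both Cko TAC libraries lie below both WT TAC libraries for Myh7 and Rcan1 and above them for Timp1, and Igkc is high in WT TAC 1 alone among the TAC libraries.

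Across all genes, no gene passed an adjusted p of 0.05 between Cko TAC and WT TAC in limma (0 of 13930, 0.0%), and the smallest adjusted p was 0.449. Without adjustment, 1269 genes (9.11%) had p under 0.05, of which 613 (4.4%) were higher and 656 (4.71%) lower in Cko TAC. The levels of the 2 groups did not overlap for 5538 genes (39.8%), with 2832 (20.3%) higher and 2706 (19.4%) lower in Cko TAC. A log2 difference of 1 or more was seen for 171 genes (1.23%), 65 (0.467%) higher and 106 (0.761%) lower. Without WT TAC 1 the genes at that p were 2.57% higher and 2.3% lower, and without Cko TAC 2 they were 3.78% and 2.38%. They were 5.8% and 6.45% without WT TAC 2, and 5.46% and 6.4% without Cko TAC 1. The median absolute log2 difference between single libraries was 0.19 for the WT TAC pair, 0.21 for the Cko TAC pair, and 0.17 to 0.27 for the 4 pairs of 1 Cko TAC and 1 WT TAC library. The genes and gene groups that follow are described by their values, and none of them passed unless that is said. A count with 1 library left out belongs beside the shares given here for that library, which differ from those of all TAC libraries.

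Esr1 had the largest positive log2 difference of the tested genes, at 6.05 (SE 2.15, adjusted p = 0.526). Its spread was set by the WT sham pair, 144 against 0.103 FPKM. It passed in limma when the library labelled WT sham 1 was left out (adjusted p = 0.000962), without WT sham 2 (adjusted p = 0.000952), and in the 4 TAC libraries alone (adjusted p = 0.00659). The gene was singled out after its values were seen, and which part of it the reads came from was not tested.

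Among the genes that mark a heart under load, Myh7, Rcan1 and Ankrd1 were lower in both Cko TAC libraries than in both WT TAC libraries, and Timp1 was higher. Myh7 (chr14:54970684-54994626, - strand), the slow myosin heavy chain of the fetal ventricle, was at 266 and 56.7 FPKM in WT TAC and at 32.5 and 16.6 FPKM in Cko TAC. The sham libraries were at 24.6 and 24.9 FPKM in wild type and 15.6 and 13.7 FPKM in Cko. The 2 WT TAC libraries differed widely from each other, and Cko TAC 2 was below the WT sham level. The log2 difference under TAC was -2.38 (SE 0.64, unadjusted p = 0.00663, adjusted p = 0.505), and it was -1.27 without WT TAC 1. It was -3.49 without WT TAC 2, which left WT TAC 1, the higher library, alone in its group. Myh7 resembles its neighbour Myh6 over most of its length, so reads from the pair may be split between them. Myh6, the adult myosin, was at 1145 and 1563 FPKM in WT TAC and 1240 and 1607 FPKM in Cko TAC, and these ranges overlapped.

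The gene of the microRNA miR-208b, Mir208b (chr14:54975700-54975776, - strand), lies inside Myh7 and is expressed with it, and its mature strands are shown because the deposited values of host and microRNA gene differ in direction. The capitals mark the seed, bases 2 to 8, in the RefSeq sequences of GRCm38.p6.
mmu-miR-208b-3p: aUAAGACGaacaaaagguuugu
mmu-miR-208b-5p: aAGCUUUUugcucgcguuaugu
Mir208b was at 8.38 and 19.9 FPKM in WT TAC and at 23.9 and 63.9 FPKM in Cko TAC, from 12, 27, 34 and 85 reads. Both Cko TAC libraries were higher (log2 difference 1.56, SE 0.52, adjusted p = 0.515), opposite to Myh7. The difference was 0.96 without WT TAC 1 and 0.86 without Cko TAC 2. The labels do not describe small-RNA libraries, so these values are not levels of the mature strands. The gene was chosen after its values were seen.

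Rcan1 (chr16:92391953-92470867, - strand), an inhibitor of calcineurin that NFAT induces, was at 148 and 83.3 FPKM in WT TAC and at 54.8 and 31.3 FPKM in Cko TAC. The sham libraries were at 34.9 and 31.1 FPKM in wild type and 35.5 and 23.5 FPKM in Cko. Both WT TAC libraries were above all 6 others, and Cko TAC 2 was within the sham range. The log2 difference under TAC was -1.41 (SE 0.35, unadjusted p = 0.00469, adjusted p = 0.481) and was -0.9997 without WT TAC 1. Under sham it was -0.19, or -0.10 without the library labelled WT sham 1. The difference between the genotype effects of TAC and sham was -1.23 (adjusted p = 0.911), or -1.31 without that library (adjusted p = 0.661).

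The RefSeq entry for 1 Rcan1 start is shown (GRCm38.p6, chr16:92400079-92400328, - strand, the 250 bases before the start). Rcan1 was taken as the calcineurin-NFAT gene with the largest difference, and an entry was shown only if it held the NFAT core. The presence of that core was thus fixed by the choice. Capitals mark the NFAT core TGGAAA, here as its reverse complement, and the cyclic AMP response element TGACGTCA, both searched on both strands.
Rcan1: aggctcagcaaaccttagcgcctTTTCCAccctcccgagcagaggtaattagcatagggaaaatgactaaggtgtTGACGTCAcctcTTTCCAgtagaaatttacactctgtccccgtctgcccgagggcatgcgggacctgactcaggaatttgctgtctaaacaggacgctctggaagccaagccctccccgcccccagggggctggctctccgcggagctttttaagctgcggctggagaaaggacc
The NFAT core was in 17.8% and the cyclic AMP response element in 2.95% of 10125 tested genes with a promoter entry, so the first match is common among windows of this length. The rest of the calcineurin, NFAT, CaMKII and calpain list lay on both sides of 0. Of 26 tested, 2 had p under 0.05, both lower (4 without Cko TAC 1), beside 4.71% of all genes, and the list median was 0.01, as for all genes. The second was Rcan2, a related calcineurin inhibitor, at 78.6 and 73.8 FPKM in WT TAC and 57.5 and 55.2 FPKM in Cko TAC. Camk2d, the main cardiac CaMKII gene, was at 6.47 and 6.29 FPKM in WT TAC and 5.22 and 4.62 FPKM in Cko TAC.

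The natriuretic peptides, which the loaded ventricle secretes, did not separate the genotypes. Nppa was at 1855 and 532 FPKM in WT TAC and at 742 and 515 FPKM in Cko TAC, and its log2 difference of -0.68 became 0.22 without WT TAC 1. Nppb was at 1628 and 951 FPKM against 1023 and 586 FPKM, with overlapping groups. Acta1, the skeletal actin of the fetal programme, overlapped as well, at 745 and 1018 FPKM against 841 and 1154 FPKM. Ankrd1, a stretch-responsive titin-binding protein, was at 3269 and 1902 FPKM in WT TAC and at 1815 and 1404 FPKM in Cko TAC, with the groups separated by a small margin (log2 difference -0.64, adjusted p = 0.645, and a difference of -0.25 without WT TAC 1). In the hypertrophy and fetal programme list, 7 of 27 genes had p under 0.05 and were lower and 1 was higher, beside 4.71% and 4.4% of all genes. The list median was -0.13 under TAC. In the sham hearts it was -0.19, or -0.22 without the library labelled WT sham 1. The lower genes included Xirp1, a protein of the intercalated disc, at 48.4 and 37.4 FPKM in WT TAC and 27.4 and 22.5 FPKM in Cko TAC. The higher gene was Ankrd2, a relative of Ankrd1, at 0.440 and 5.77 FPKM against 26.9 and 6.52 FPKM. Without WT TAC 1, 3 genes of the list were lower and 1 higher at that p, beside 2.3% and 2.57% of all genes, and without Cko TAC 2, 3 were lower and 2 higher.

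Genes of the contractile and calcium-handling apparatus were more often lower than higher in Cko TAC, with list medians below 0 under both surgeries. In the sarcomere list 8 of 26 genes had p under 0.05 and were lower and 1 (Cryab, a small heat shock protein) was higher, beside 4.71% and 4.4% of all genes. The list median was -0.08 beside 0.01 for all genes, and it ran from -0.18 without Cko TAC 2 to 0.03 without Cko TAC 1. In the sham hearts the sarcomere median was -0.23, or -0.31 without the library labelled WT sham 1. Nexn, an actin-binding protein of the Z-disc, was at 128 and 114 FPKM in WT TAC and at 74.8 and 68.0 FPKM in Cko TAC (log2 difference -0.76, SE 0.13). Myom2, a protein of the M-band, was at 124 and 88.3 FPKM in WT TAC and at 48.8 and 54.1 FPKM in Cko TAC (log2 difference -1.02, SE 0.21). Both genes were named for their small p, which favours a wide separation of the groups. Without WT TAC 1, 4 sarcomere genes were lower and 0 higher at that p, beside 2.3% and 2.57% of all genes, and without Cko TAC 1, 5 were lower and 0 higher.

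In the calcium cycling list 6 of 24 genes had p under 0.05 and were lower, and 1 was higher, beside 4.71% and 4.4% of all genes. The difference was negative for 18 of the 24. The list median was -0.17, or -0.17 to -0.20 with 1 TAC library left out. In the sham hearts it was -0.20, or -0.12 without the library labelled WT sham 1. Genes of this list are long, with a median listed length of 7716 bases beside 3948 for all genes, and long genes were lower over the whole table, as given with the ribosomal genes. With the trend against length removed, the list median was -0.11 and 5 genes were lower at that p. Ryr2, the release channel of the sarcoplasmic reticulum, was at 29.2 and 23.03 FPKM in WT TAC and at 17.9 and 16.8 FPKM in Cko TAC (log2 difference -0.57, or -0.37 with the length trend removed). Asph, the gene that also encodes junctin, was at 12.3 and 13.6 FPKM in WT TAC and at 9.09 and 8.79 FPKM in Cko TAC. Both Cko TAC libraries were lower for these 2 genes. Orai1, the pore of the store-operated calcium channel, was the higher gene, at 7.38 and 7.97 FPKM in WT TAC and 10.3 and 10.6 FPKM in Cko TAC. Atp2a2, the calcium pump SERCA2, overlapped between the groups at 748 and 1049 FPKM against 792 and 687 FPKM. Among the Piezo and TRP channels, 0 of 16 tested genes had p under 0.05, and 1 or 2 did when 1 TAC library was left out. Trpv2 was at 1.53 and 1.503 FPKM in WT TAC and 3.40 and 2.13 FPKM in Cko TAC, and Piezo2 was not tested, at 0.121 to 0.613 FPKM in the 4 TAC libraries.

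Of the potassium channels, 2 of 20 had p under 0.05 and were lower, beside 4.71% of all genes, and 0 did without Cko TAC 2. These were Kcnj12, an inward rectifier, at 4.97 and 5.54 FPKM in WT TAC and 4.18 and 2.93 FPKM in Cko TAC, and Kcnj11, the pore of the ATP-sensitive channel, at 29.5 and 26.6 FPKM against 20.02 and 20.4 FPKM. In the list of YAP/TAZ, SRF and MRTF targets, which answer to tension on the actin cytoskeleton, 3 of 27 were lower at that p, and 0 higher, beside 4.71% and 4.4% of all genes. The median of -0.19 was -0.067 without WT TAC 1, with 12 genes positive and 15 negative, and -0.052 without Cko TAC 2. It was -0.33 without Cko TAC 1, with 10 genes positive and 17 negative. Amotl2, a feedback inhibitor of YAP, was at 13.01 and 13.4 FPKM in WT TAC and 9.20 and 8.14 FPKM in Cko TAC. Tead1, the DNA-binding partner of YAP, was at 13.1 and 9.51 FPKM against 6.37 and 6.17 FPKM. Srf, the serum response factor, was at 35.0 and 33.0 FPKM against 28.1 and 19.4 FPKM. Each of these 3 was lower in both Cko TAC libraries. Ctgf, a YAP target, overlapped between the groups at 265 and 53.2 FPKM against 84.2 and 39.3 FPKM.

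The 15 named genes with the smallest p among those lower in Cko TAC included several genes of striated muscle. Retreg1, a receptor for autophagy of the endoplasmic reticulum, had the smallest p of all genes, at 53.5 and 54.0 FPKM in WT TAC and 30.1 and 26.7 FPKM in Cko TAC (log2 difference -0.91, SE 0.12, adjusted p = 0.449). The groups did not overlap, which the rule that chose the 15 required. Fsd2, a protein of the cardiac sarcoplasmic reticulum, was at 46.6 and 41.8 FPKM in WT TAC and at 25.0 and 22.5 FPKM in Cko TAC. Cmya5, which anchors proteins at the dyad of heart muscle, was at 26.8 and 25.6 FPKM in WT TAC and 16.7 and 15.5 FPKM in Cko TAC. Fbxo32, the muscle ubiquitin ligase atrogin-1, was at 14.9 and 15.1 FPKM against 9.80 and 8.86 FPKM. These 3 were chosen by the same rule, so their groups could not overlap. Insr, the insulin receptor, was at 11.4 and 10.8 FPKM against 7.18 and 6.37 FPKM. These 4 genes were lower by a similar factor, with log2 differences of -0.88 for Fsd2, -0.69 for Cmya5, -0.66 for Fbxo32 and -0.68 for Insr. Aqp8, a water channel, had the largest difference of the 15, at 7.17 and 5.05 FPKM in WT TAC and 2.09 and 1.68 FPKM in Cko TAC (log2 difference -1.46, SE 0.24). The other 8 besides Nexn were Vldlr, Frmd5, Txlnb, Tmeff1, Golga4, Rragd, Cdnf and Fhod3, with log2 differences from -0.59 (Fhod3) to -1.10 (Frmd5).

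These 15 genes were chosen by their p under TAC, which favours larger differences there than under sham. All 15 leaned the same way in the sham hearts, by less. Their log2 differences under sham were negative for all 15, from -0.03 for Aqp8 to -0.55 for Cmya5. Without the library labelled WT sham 1 they were negative for all 15 as well, from -0.14 for Fsd2 to -0.73 for Tmeff1, with Aqp8 at -0.27. Retreg1 was at 49.1 and 50.6 FPKM in WT sham and 39.98 and 39.7 FPKM in Cko sham (log2 difference -0.32, or -0.34 without the library labelled WT sham 1). None of the 15 passed in the test of the difference between the genotype effects. More widely, 79.1% of the 656 lower genes and 61.5% of the 613 higher genes had the same sign under sham, beside 56.4% of all genes. Without the library labelled WT sham 1 these shares were 72.1% and 53.2%, beside 50.3%.

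**Figure D2:**
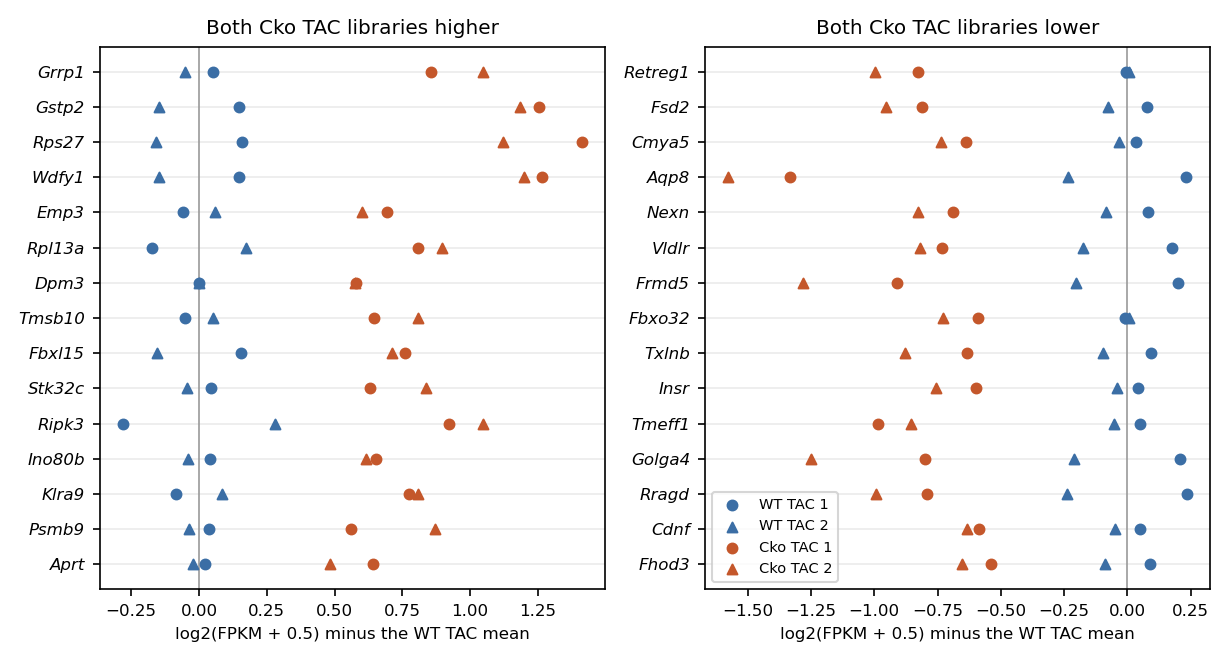
Level in each TAC library as log2(FPKM + 0.5) minus the mean of the 2 WT TAC libraries, for the 15 named genes with the smallest p in each direction, WT TAC in blue and Cko TAC in orange. By the rule that chose them the colours do not overlap in any row. The mean difference is largest for Rps27 among the higher genes and Aqp8 among the lower genes.

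The 15 named genes with the smallest p among those higher in Cko TAC were of several kinds. Grrp1, a gene of glycine- and arginine-rich protein 1, was at 18.3 and 17.0 FPKM in WT TAC and 32.3 and 37.0 FPKM in Cko TAC (log2 difference 0.95, SE 0.13). Wdfy1, an endosomal adaptor of Toll-like receptors, was at 1.67 and 1.27 FPKM against 4.20 and 3.99 FPKM (log2 difference 1.23, SE 0.21). Ripk3, the kinase of necroptosis, was at 2.58 and 4.05 FPKM against 6.60 and 7.25 FPKM (log2 difference 0.99, SE 0.20). Both Cko TAC libraries were above both WT TAC libraries, as the rule that chose the 15 required. Emp3, a membrane protein, was at 22.3 and 24.2 FPKM against 37.9 and 35.6 FPKM. Psmb9, a catalytic subunit of the immunoproteasome, was at 5.19 and 4.89 FPKM against 7.66 and 9.63 FPKM. Aprt, an enzyme of adenine salvage, was at 11.9 and 11.6 FPKM against 18.6 and 16.6 FPKM. The remaining 9 were Gstp2, Rps27, Rpl13a, Dpm3, Tmsb10, Fbxl15, Stk32c, Ino80b and Klra9. Near copies elsewhere in the genome make the reads of Gstp2, Rps27, Rpl13a, Tmsb10 and Klra9 uncertain. The 15 did not share a sign in the sham hearts. Rps27, Emp3, Rpl13a, Fbxl15, Stk32c and Ripk3 were negative there, from -0.06 (Fbxl15) to -0.20 (Rpl13a). The others were positive, from 0.02 (Dpm3) to 1.29 (Klra9), and Wdfy1 became negative without the library labelled WT sham 1. Klra9 differed less under TAC (0.79) than under sham, and Psmb9 was at 0.72 under TAC and 0.64 under sham.

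Ribosomal protein genes leaned higher in Cko TAC as a list, and none passed. Rps27, a protein of the small ribosomal subunit, was not in the list, whose largest log2 difference was 0.60, and was named for its small p. Rps27 was at 77.8 and 62.4 FPKM in WT TAC and at 186 and 152 FPKM in Cko TAC (log2 difference 1.27, SE 0.19, adjusted p = 0.449 by limma). In the sham groups it was at 273 and 281 FPKM in wild type and 278 and 220 FPKM in Cko, so the WT TAC libraries were the lowest of the 8. Rps18, a member of the list, was at 115 and 131 FPKM in WT TAC and 183 and 184 FPKM in Cko TAC. All 34 tested genes of the list had a positive log2 difference, where 51.7% of all genes did, with values from 0.13 to 0.60 and a median of 0.39 beside 0.01 for all genes. Of the 34, 20 had p under 0.05 and were higher, and 32 did not overlap between the groups, beside 4.4% and 20.3% of all genes. Without WT TAC 1 the median was 0.29, with 33 of 34 positive and 3 higher at p under 0.05, beside 2.57% of all genes. The median was 0.38 without Cko TAC 1, with 32 of 34 positive, and 0.43 without Cko TAC 2. Under sham the list median was -0.06, or -0.16 without the library labelled WT sham 1. Rps18 and many of its family have near copies, so their reads may be split.

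Ribosomal protein genes are short, and the differences between the genotypes moved with gene length over the whole table. With the genes in 4 equal classes by length, the median log2 difference was 0.13 in the shortest class, 0.05 in the second, -0.01 in the third and -0.08 in the longest. In the shortest class 328 genes were higher and 105 lower in Cko TAC at p under 0.05, and in the longest class 33 were higher and 249 lower. The median listed length was 2091 bases for the 613 higher genes, 5151 for the 656 lower genes and 3948 for all. Cko TAC 2 was the library farthest from the others in this respect, with a median deviation from the mean of the 4 TAC libraries of 0.12 in the shortest class and -0.07 in the longest. With the trend against length removed, the ribosomal median was 0.30 with 12 of 34 genes higher at p under 0.05, 455 of all genes (3.27%) were higher and 648 (4.65%) lower at that p, and Retreg1 had a log2 difference of -0.91 and Myh7 of -2.30. The part of RNA quality or fragment length in this trend was not tested.

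**Figure D3:**
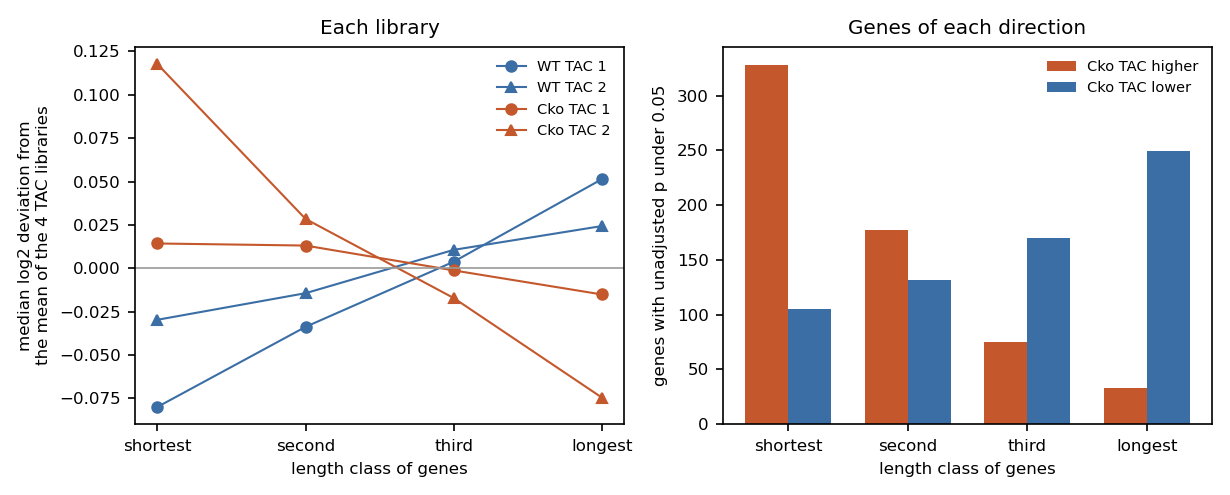
Left, median log2 deviation of each TAC library from the mean of the 4 TAC libraries, for 4 equal classes of the tested genes by listed length. Right, number of genes with unadjusted p under 0.05 that were higher (orange) or lower (blue) in Cko TAC in each class, 328 higher in the shortest and 249 lower in the longest.

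Interferon-stimulated genes, which cells switch on when they sense interferon, leaned higher in Cko TAC by a similar amount, and none passed. All 32 tested had a positive log2 difference, with a median of 0.42. Of them 25 did not overlap between the groups (20.3% of all genes did so in that direction), and 2 had p under 0.05, beside 4.4% of all genes. The summed FPKM of the list was 359 and 529 in WT TAC, 622 and 772 in Cko TAC, 337 and 842 in WT sham and 464 and 436 in Cko sham. The 2 WT sham libraries thus spanned the range of all 4 TAC libraries. Ifi27l2a was at 89.2 and 162 FPKM in WT TAC and 198 and 285 FPKM in Cko TAC. Gbp5, a guanylate-binding protein that interferon gamma induces, was at 2.58 and 2.97 FPKM against 3.56 and 5.01 FPKM. Without WT TAC 1 the list median was 0.25, with 31 of 32 positive and 0 at p under 0.05, and without Cko TAC 2 it was 0.28, with 30 of 32 positive and 0 at that p. Under sham the median was -0.22, and -0.85 without the library labelled WT sham 1.

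The core of the interferon-stimulated response element, 2 copies of GAAA with 2 bases between them, searched on both strands in the 250 bases before each start, was in 14 of 23 list genes with a RefSeq promoter entry (60.9%) and in 331 of 10125 tested genes (3.27%). The 4 list genes chosen, those with the smallest p and a match, are shown with the core in capitals, as 40-base stretches on the gene's own strand (GRCm38.p6), at chr3:142496754-142496793 for Gbp5, chr3:142620589-142620628 for Gbp2, chr4:156200872-156200911 for Isg15 and chr8:71537578-71537617 for Bst2.
Gbp5: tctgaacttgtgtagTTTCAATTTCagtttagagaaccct
Gbp2: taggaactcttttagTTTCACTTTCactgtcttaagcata
Isg15: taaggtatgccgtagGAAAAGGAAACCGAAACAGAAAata
Bst2: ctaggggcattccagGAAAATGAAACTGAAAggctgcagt
In the stretches of Isg15 and Bst2 several overlapping matches run together. Gbp2, another guanylate-binding protein, was at 10.8 and 15.8 FPKM in WT TAC and 18.5 and 20.1 FPKM in Cko TAC. Isg15, a ubiquitin-like modifier, was at 20.1 and 29.8 FPKM against 48.3 and 43.6 FPKM. Bst2, the antiviral protein tetherin, was at 69.5 and 110 FPKM against 128 and 147 FPKM. All 3 were higher in both Cko TAC libraries, and none had p under 0.05.

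Genes of MHC and antigen presentation had a positive median difference under both surgeries, and none passed under TAC. In this list 6 of 20 genes had p under 0.05 and were higher in Cko TAC and 0 were lower, beside 4.4% and 4.71% of all genes, and 18 of 20 had a positive difference. At that p 2 were higher without WT TAC 1, beside 2.57% of all genes, and 3 without Cko TAC 2. The median of 0.35 was 0.33 to 0.41 with 1 TAC library left out. Under sham the median was 0.51, or 0.28 without the library labelled WT sham 1. H2-D1, a classical class I heavy chain, was at 175 and 197 FPKM in WT TAC and at 242 and 278 FPKM in Cko TAC. In the sham groups it was at 178 and 191 FPKM in wild type and 291 and 275 FPKM in Cko. H2-Q6, a non-classical class I gene, was at 18.1 and 20.9 FPKM in WT TAC and 29.2 and 43.2 FPKM in Cko TAC. For both genes each Cko library was above each wild-type library of the same surgery. H2-D1 and H2-Q6 are near copies of each other and of further class I genes, and their reads may be split.

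Macrophage markers and chemokines were highest in Cko TAC 1. Of 20 macrophage markers, 4 had p under 0.05 and were higher and 0 lower, beside 4.4% and 4.71% of all genes, and the median was 0.42. Cd68, a lysosomal protein of macrophages, was at 10.1 and 13.6 FPKM in WT TAC and 26.5 and 21.3 FPKM in Cko TAC. Itgam, the integrin CD11b, was at 1.44 and 2.31 FPKM against 5.08 and 2.78 FPKM. The summed level of the list was 740 and 732 FPKM in WT TAC and 1143 and 847 FPKM in Cko TAC, and without Cko TAC 1 the list median was 0.11, with 1 gene higher and 2 lower at that p. In this bulk tissue, more macrophages and more RNA of these genes per cell cannot be told apart. Ccl2, the chemokine that draws monocytes, was at 5.53 and 12.4 FPKM in WT TAC and 43.7 and 13.02 FPKM in Cko TAC. The chemokine and cytokine list had 3 of 29 genes higher and 0 lower at p under 0.05, beside 4.4% and 4.71% of all genes. Its median of 0.37 was 0.10 without Cko TAC 1, 0.24 without WT TAC 1 and 0.71 without Cko TAC 2.

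Timp1, the inhibitor of matrix metalloproteinases, had the largest positive difference of the textbook load genes (chrX:20870166-20874735, + strand). It was at 45.2 and 61.3 FPKM in WT TAC and at 262 and 96.7 FPKM in Cko TAC, and at 8.16 and 9.37 FPKM in WT sham and 3.67 and 3.60 FPKM in Cko sham. The order of the genotypes was thus opposite in the 2 surgeries. The log2 difference under TAC was 1.59 (SE 0.41, unadjusted p = 0.00519, adjusted p = 0.496), 1.37 without WT TAC 1 and 0.87 without Cko TAC 1. The difference between the genotype effects of TAC and sham was 2.75 (adjusted p = 0.911), and 2.84 without the library labelled WT sham 1 (adjusted p = 0.64). Tnc, a matricellular protein of injured tissue, was at 3.66 and 5.74 FPKM in WT TAC and 14.2 and 5.89 FPKM in Cko TAC. Serpinh1, the collagen chaperone HSP47, was at 176 and 226 FPKM against 301 and 262 FPKM. For all 3 genes Cko TAC 1 was the highest library.

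**Figure D4:**
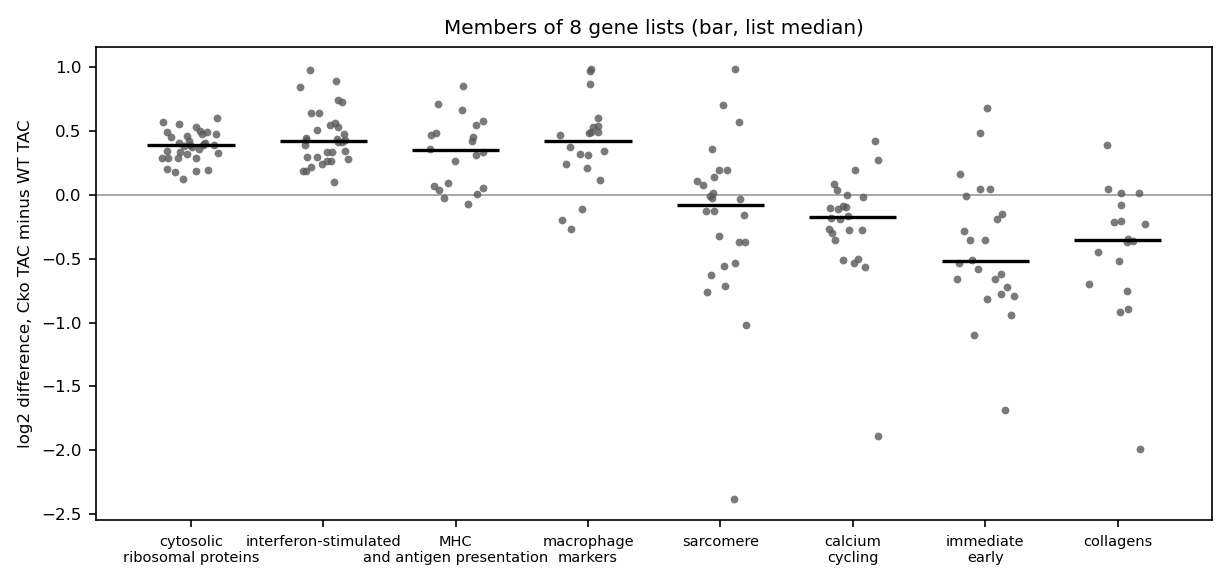
Log2 difference between Cko TAC and WT TAC of each tested gene in 8 lists, 1 point per gene with the list median as a bar. All ribosomal protein and interferon-stimulated genes lie above 0, and the sarcomere and calcium cycling lists lie on both sides of 0 with a few genes far below.

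Most of the other matrix genes were lower in Cko TAC when both WT TAC libraries were used and higher when WT TAC 1 was left out. In the matrix glycoprotein list 31 of 38 genes had a negative difference, with a median of -0.49, and without WT TAC 1 31 of 38 had a positive one, with a median of 0.22. The collagen median of -0.35 over 18 genes became 0.08. Postn, a matricellular protein of activated fibroblasts, was at 182 and 48.3 FPKM in WT TAC and at 56.4 and 60.4 FPKM in Cko TAC. Col1a1, the main fibrillar collagen chain, was at 148 and 52.2 FPKM against 77.4 and 48.5 FPKM. Both genes were high in WT TAC 1. WT TAC 2 lay below both Cko TAC libraries for Postn and between them for Col1a1. Fibroblast markers summed to 1050 and 826 FPKM in WT TAC and to 910 and 784 FPKM in Cko TAC, with a median of -0.18, or 0.07 without WT TAC 1 and -0.11 without Cko TAC 2.

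The same library carried the B-cell and plasma-cell genes. Jchain, which joins the chains of secreted IgA and IgM, was at 22.5 and 0.158 FPKM in WT TAC and at 0.172 and 0.0920 FPKM in Cko TAC. The list summed to 427 FPKM in WT TAC 1, 19.6 in WT TAC 2, and 29.0 and 22.8 in Cko TAC. Its median of -0.68 became 0.16 without WT TAC 1. When WT TAC 2 was left out instead, so that WT TAC 1 alone stood for its group and was assumed to vary like the others, 18 genes passed, 16 of them lower, among them Igha, Jchain, Mmp2, Aspn and Fbln5.

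**Figure D5:**
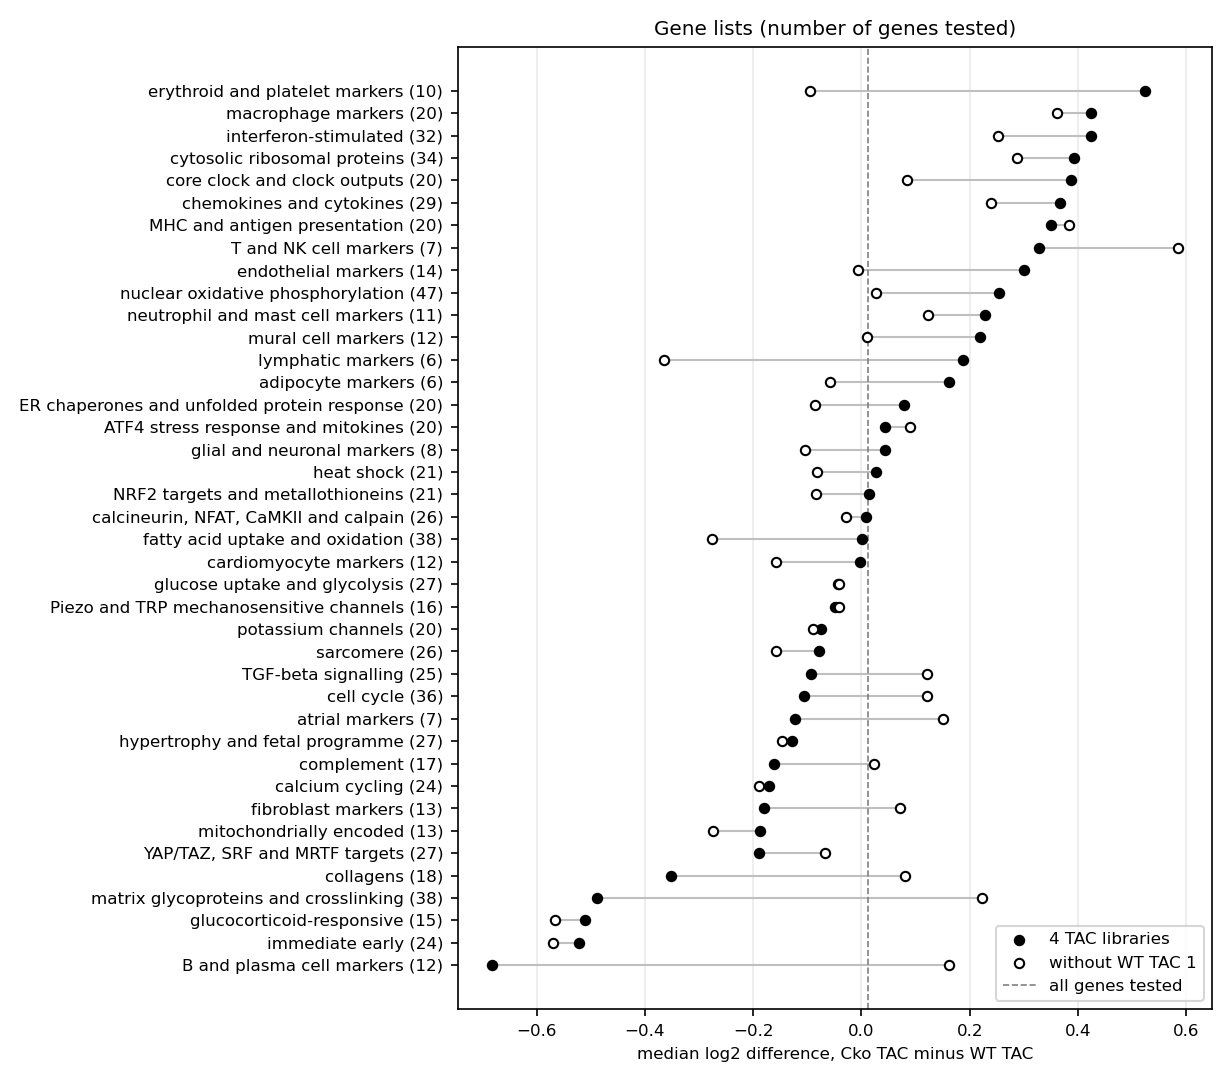
Median log2 difference between Cko TAC and WT TAC for the 40 lists with at least 6 tested genes, from all 4 TAC libraries (filled) and without WT TAC 1 (open), with the median of all genes as a dashed line. The B and plasma cell, matrix glycoprotein, erythroid, lymphatic and collagen medians move the most, and the ribosomal, macrophage and MHC medians stay on the same side.

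Early-response and hormone-responsive lists had negative median differences under both surgeries, set in part by single libraries, and no member passed. In the immediate early list 5 of 24 genes had p under 0.05 and were lower and 1 (Fosl1) was higher, beside 4.71% and 4.4% of all genes. The median of -0.52 was -0.23 without WT TAC 2 and -0.22 without Cko TAC 2. It was -0.57 without WT TAC 1 and -0.61 without Cko TAC 1. The summed FPKM of the list overlapped, at 395 and 503 in WT TAC and 426 and 311 in Cko TAC. Under sham the median was -0.58, or -0.80 without the library labelled WT sham 1. Klf2, a transcription factor of endothelium under flow, was at 64.8 and 65.3 FPKM in WT TAC and 40.1 and 47.0 FPKM in Cko TAC. Fosl2, an AP-1 subunit, was at 5.98 and 5.90 FPKM against 4.03 and 2.88 FPKM. In the glucocorticoid-responsive list 3 of 15 were lower at that p and 1 higher. Its median under TAC was -0.51, or -0.34 without Cko TAC 2, and under sham it was -0.74, or -0.77 without the library labelled WT sham 1. Zbtb16, a glucocorticoid-induced repressor, was at 2.15 and 5.04 FPKM in WT TAC and 1.32 and 0.953 FPKM in Cko TAC.

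The clock gene Arntl differed between the libraries of WT TAC, of WT sham and of Cko sham, and not between those of Cko TAC. Arntl, the BMAL1 subunit of the clock, was at 4.02 and 1.39 FPKM in WT TAC and at 0.375 and 0.377 FPKM in Cko TAC, but also at 3.96 and 0.796 FPKM in WT sham and 3.89 and 1.04 FPKM in Cko sham. The time of day at which the hearts were taken is not in the labels, and its part in this difference was not tested. The log2 differences of the 20 clock genes tested ran from -1.74 to 2.375, with 12 positive and 8 negative. Their median of 0.39 (0.08 without WT TAC 1) therefore does not stand for a common direction.

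The medians of the metabolic lists moved with single libraries. The nuclear genes of oxidative phosphorylation had a median of 0.25 with 40 of 47 positive, and a median of 0.03 without WT TAC 1 and 0.02 without Cko TAC 2. In that list 1 gene had p under 0.05 (11 were higher without Cko TAC 1, beside 5.46% of all genes), Atp5e, a subunit of ATP synthase, at 168 and 219 FPKM in WT TAC and 252 and 353 FPKM in Cko TAC. In the fatty acid list 4 of 38 were lower at that p and 1 higher, beside 4.71% and 4.4% of all genes, with a median of 0.00. The lower genes included the regulators Ppara, at 3.08 and 2.58 FPKM against 1.97 and 0.528 FPKM, and Esrrg, at 4.71 and 3.83 FPKM against 2.80 and 2.24 FPKM. Without WT TAC 1 the fatty acid median was -0.28, with 33 of 38 negative and 7 lower and 0 higher at that p, beside 2.3% and 2.57% of all genes. Without WT TAC 2 it was 0.14, and without Cko TAC 2 it was -0.13. In glycolysis 4 of 27 were lower and 0 higher, with 2 lower without WT TAC 1 and 0 without Cko TAC 2. Among the 4 was Hk1, the first enzyme of the pathway, at 23.3 and 18.9 FPKM against 16.2 and 14.7 FPKM.

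The comparison was set beside the same one in sham hearts, which shares none of its libraries. There 3 of 13930 genes passed (0.0215%), Gapdh, Gm49326 and Aplnr, and 4 did without the library labelled WT sham 1. Aplnr, the receptor of the peptide apelin, was at 10.4 and 11.6 FPKM in WT sham and at 46.8 and 41.3 FPKM in Cko sham, and at 42.0 and 41.1 FPKM in WT TAC and 50.1 and 69.9 FPKM in Cko TAC. The difference between the genotype effects passed for 1 gene (0.00718%), Gapdh. All of these comparisons have 2 libraries a group and share an estimate of the spread over all 8 libraries. A p above the threshold does not show that the genotypes did not differ.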

How the data were processed

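Heart RNA of 8 libraries was sequenced after Trizol extraction and NEBNext Ultra library preparation, per the labels' protocols. The authors deposited 1 table of FPKM values with gene coordinates and lengths. The submitters' processing notes list 2 builds, mm10 and mm8, and the tools featureCounts 1.5.0-p3, Bowtie 0.12.2 and CASAVA 1.8, without role or order. Coordinates equal those of GENCODE release M21 (GRCm38, the same assembly as mm10) for 53499 of 54409 shared gene identifiers. FPKM times length was a whole multiple of 1 step in each library (100% of values within 0.01 reads), which gave back the assigned reads, 15574769 to 17313084 per library. These reads served for the depth filter and for limma-voom.

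Levels were compared as log2(FPKM + 0.5) with limma 3.58.1 in R 4.3.3, 1 mean per group over all 8 libraries, with trended and robust variance moderation (4 residual degrees of freedom, median prior 3.54), two-sided, with Benjamini-Hochberg adjustment over 13930 genes and a threshold of 0.05. A log2 difference on this scale understates that of low genes. The model was also run on simulated data in which no library stood apart, so that run does not show how it behaves on these libraries. Replicate libraries differed by more than counting noise (chi-square per degree of freedom 17.9 to 46.6), so none was a copy. Same-numbered TAC libraries of the 2 genotypes had deviations that correlated at 0.05 over genes, so the numbers were not treated as pairs.

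The genes named are Piezo1, 12 textbook load genes, up to 15 genes per direction with the smallest p, no overlap and mean log2 CPM of recovered reads of at least 1 (predicted genes and pseudogenes left out), and the 3 smallest p of each of 41 lists (902 entries, of which 821 were tested). Esr1, Mir208b and Gapdh, the genes shown for their promoters, and those named as the only or further members of a count were chosen after their values were seen. The comparison and the lists were chosen with earlier results of these data known, and lists are described by counts and medians, without a test. Near copies were found by aligning transcripts with minimap2 2.31-r1302 (90% identity over 50% of the copy). Promoter and microRNA sequences are from RefSeq, and promoters on chromosome 18 were left out of those shown.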

Additional observations from a re-analysis of the deposited data

Results flagged for a closer look

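Gapdh, the glycolytic enzyme often used as a reference gene, was the gene whose genotype effect differed between the surgeries in the test of that difference. It was at 81.1 and 122 FPKM in WT sham and at 2.31 and 2.85 FPKM in Cko sham, but at 1.77 and 1.55 FPKM in WT TAC and 2.32 and 2.26 FPKM in Cko TAC. The log2 difference between Cko and wild type was 0.371 under TAC and -5.03 under sham, and the first minus the second was 5.4 (adjusted p = 0.00176 by limma). Without the library labelled WT sham 1 it was 5.70 (adjusted p = 0.00126). Both WT sham libraries were high and the other 6 were low. Gapdh has 5 near copies among annotated transcripts, and the part of read assignment between them was not tested.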

How the results depend on the processing

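With 2 libraries a group, their number limits the precision. Genes passing between Cko TAC and WT TAC, 0 in each direction, stayed at 0 under other scalings and pseudocounts, no filter, protein-coding genes alone, limma-voom on recovered reads, plain variance moderation and the gene-length correction, which was added after seeing the data. With the filter of 0.5 FPKM alone, and with that of 2 FPKM, 1 gene passed as higher, Gm22574, and 1, Esr1, passed in the 4 TAC libraries alone. Leaving out 1 library gave 0 to 2 higher and 0 to 16 lower genes, the most without WT TAC 2, and 358 to 808 higher and 320 to 898 lower genes at an unadjusted p under 0.05, the fewest without WT TAC 1. For sham, 3 passing genes became 1 without a filter, and 1 to 4 with 1 library left out. For the difference of the genotype effects, 1 gene became 3 with 0.5 FPKM alone, 2 without a filter, 2 with 2 FPKM, 0 without the TAC libraries numbered 1, and 1 to 3 with 1 library left out. The cause of these changes was not tested.

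The replicate block changed no call between Cko TAC and WT TAC, with 0 genes passing and 733 higher and 757 lower at an unadjusted p under 0.05. With the length trend removed too, these were 524 and 751. Samples shared only a number, and the correlations of deviations between same-numbered libraries ranged from 0.03 to 0.25.

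Of 2569 log2 differences of 112 named genes under 23 alternatives, 9 changed sign, and 109 genes passed under none. With 1 library left out, Nppa ranged from -1.59 to 0.22, Postn from -1.63 to 0.27, Col1a1 from -1.26 to 0.23 and Ctgf from -2.19 to 0.11, each reversed without WT TAC 1. Acta1 ranged from -0.051 to 0.41 and Myh6 from -0.15 to 0.30, and both were reversed without WT TAC 1 (-0.048 for Acta1) and without Cko TAC 2 (-0.11 for Myh6). Without the TAC libraries numbered 1, Postn was 0.32. List medians moved by more than the spread between replicates in 58 of 941 cases. The edgeR and DESeq2 fits listed as alternatives were not run, since the deposited values are FPKM.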
